A study of Homo sapiens with 42 samples.

Results

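Promoter accessibility at the genes of the cytosolic ribosomal proteins was described in MCF10A cells, an established, non-tumorigenic human mammary epithelial line. The members were the protein-coding genes whose symbol is RPL or RPS followed by digits and an optional letter, together with RPSA, RPLP0, RPLP1 and RPLP2, with the RPS6K kinases and the pseudogenes left out. This rule used symbols only and found 82 genes, 50 of the large and 32 of the small ribosomal subunit, among 20033 protein-coding genes. A gene was counted as having a promoter peak in a library where a peak summit lay within 1000 bp of any of its annotated transcription starts, and the height of the promoter was the fold enrichment of the strongest such peak. Fold enrichment is the fragment pileup at the summit over the local background of the same library.

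ATAC-seq, in which a transposase cuts and tags accessible DNA, was run on 42 libraries in 13 groups. CTRL cells (4 libraries) were taken at 0 h, after 18 h in medium without EGF and insulin. The other cells then received PBS, the vehicle, or EGF at 10 ng/ml, HGF at 40 ng/ml, OSM at 10 ng/ml, IFNG at 20 ng/ml with EGF at 10 ng/ml (IFNG + EGF), or TGFB at 10 ng/ml with EGF at 10 ng/ml (TGFB + EGF). They were taken at 24 h or 48 h, with 4 libraries of EGF at each time and 3 of every other group. All cells were of a single line grown from a single frozen batch, so donors were not sampled. The study's methods state biological replicates, and the p-values below measure the spread between these libraries. In bulk chromatin, fewer cells with an open promoter and less accessibility per cell cannot be told apart.

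Ribosomal proteins assemble with ribosomal RNA into the small subunit, which decodes messenger RNA, and the large subunit, which joins amino acids and ends in the flexible stalk that recruits translation factors. Their genes lie on nearly every chromosome, are housekeeping genes with short GC-rich promoters, and are made in matched amounts. Most of their transcripts begin with a cytosine and a run of pyrimidines, the terminal oligopyrimidine (TOP) tract, through which growth signals acting by mTOR control their translation.

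The transcription starts of members that carry results below are shown first, because the TOP tract is the feature these genes are known for. Each line gives, 5′ to 3′, the last 5 bases before the RefSeq start and the first 15 bases from it, on GRCh38, with the uninterrupted pyrimidine run from the start in capitals.
RPS12: gaggcCTCTTTCCCTgccgc
RPL28: ccttcCTCTTTCCgtctcag
RPL22: acctcCCTTTCTaactccgc
RPL29: cctttCTCTTCCggttctag
RPL36: ccagcCCTTCCgccacggcc
RPS13: gctctCCTTTCgttgcctga
RPL36AL: cctttCCTgttaggcgagag
RPL27: aggttagcggaagtgtcctt
The run was 10 bases long in RPS12, 8 in RPL28, 7 in RPL22 and RPL29, 6 in RPL36 and RPS13, and 3 in RPL36AL, and RPL27 started with no pyrimidine. RefSeq promoter windows, from 250 bases before the start to 50 after it, were matched for 65 of the 82 members, and 58 of the 65 had the same start as the canonical transcript of the annotation. A TOP start, defined here as a C followed by pyrimidines to a run of at least 5, was present in 42 of the 65 (64.6%), against 4.65% of 15345 protein-coding genes and 7.25% of 69 mitochondrial ribosomal protein genes.

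The upstream sequences of 6 members follow, from base 150 to base 1 before the start. RPL22 and RPS13 had among the highest median fold enrichment, RPL36AL was among the promoters with the lowest p over the 13 groups, and RPL29, RPS12 and RPL28 passed a test between groups. Capitals mark the motifs searched on both strands: ETS CCGGAAG, YY1 AAGATGG, SP1 GGGCGG, the CCAAT box by its own letters, the TATA box TATAAA, the E-box CACGTG and NRF1 GCATGCG.
RPL22: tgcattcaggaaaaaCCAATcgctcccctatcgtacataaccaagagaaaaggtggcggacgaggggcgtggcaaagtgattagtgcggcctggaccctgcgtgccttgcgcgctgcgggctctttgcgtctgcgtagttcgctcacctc
RPS13: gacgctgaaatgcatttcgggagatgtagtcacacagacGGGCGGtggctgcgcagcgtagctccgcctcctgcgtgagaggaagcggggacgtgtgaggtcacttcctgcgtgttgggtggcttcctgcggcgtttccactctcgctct
RPL36AL: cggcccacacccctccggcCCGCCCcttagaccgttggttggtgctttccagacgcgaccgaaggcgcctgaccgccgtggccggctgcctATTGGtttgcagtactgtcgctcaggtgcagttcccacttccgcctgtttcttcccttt
RPL29: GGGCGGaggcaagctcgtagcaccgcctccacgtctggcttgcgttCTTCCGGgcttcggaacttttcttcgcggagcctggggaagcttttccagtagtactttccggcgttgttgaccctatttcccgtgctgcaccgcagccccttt
RPS12: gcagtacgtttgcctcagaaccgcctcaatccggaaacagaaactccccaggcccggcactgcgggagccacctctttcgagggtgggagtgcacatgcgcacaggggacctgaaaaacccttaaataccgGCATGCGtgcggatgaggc
RPL28: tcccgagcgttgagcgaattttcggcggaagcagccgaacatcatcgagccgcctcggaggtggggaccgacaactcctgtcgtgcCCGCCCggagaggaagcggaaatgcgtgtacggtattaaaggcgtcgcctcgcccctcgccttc
On GRCh38 these lie at chr1:6199596-6199745 (minus strand), chr11:17077668-17077817 (minus strand), chr14:49620627-49620776 (minus strand), chr3:51995896-51996045 (minus strand), chr6:132814419-132814568 (plus strand) and chr19:55385782-55385931 (plus strand). The stretch shown held a CCAAT match in RPL22, an SP1 match in RPS13 and RPL28, an SP1 and a CCAAT match in RPL36AL, an SP1 and an ETS match in RPL29, and an NRF1 match in RPS12. RPL36 and RPL27 are shown by their starts only, since annotated exons reach into the bases before them. The RefSeq window of RPS29 lay at another start than the one beside its strongest peak and is not shown.

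Across the 65 windows, the ETS letters were present in 33.8% of members against 14.4% of all windows, and the YY1 letters in 12.3% against 6.43%. SP1 (56.9% against 59.2%), CCAAT (35.4% against 36.6%), TATAAA (9.23% against 9.63%) and NRF1 (7.69% against 5.13%) were closer to the share of all windows, and the E-box was present in 4.62% against 8.89%. Median GC content was 59.3% in members and 63.0% in all windows. Members with a TOP start had a peak in a median of 35.5 libraries at a median fold enrichment of 8.16 (42 genes), and those without one in 34 libraries at 8.04 (23 genes). The members with no entry in the promoter table included RPL3L, RPL5, RPL7, RPL8, RPL23, RPL23A, RPL30, RPL37, RPL39L, RPS2, RPS15A and RPS20.

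Libraries listed between 4217 and 113805 peaks (median 68373), and the number of peaks differed between groups as well as within them. CTRL libraries listed 109226 to 113805 peaks, EGF 44099 to 103106, PBS 16265 to 104875 and TGFB + EGF 4217 to 108125. The files hold no read counts, so depth was unknown. The study's methods describe removing ATAC-seq samples with a low fraction of reads in peaks, and its supplement mentions such samples of IFNG + EGF. That check was not applied here, and every library was used. Of 8 basal mammary epithelial markers, 6 or 7 had a promoter peak in each CTRL library (0 to 7 over all libraries), with none at TP63 in any library. PTPRC, SPI1 and CD3E of the leukocyte list and all endothelial markers had none, while CD14 had a peak in 36 libraries and DCN, of the fibroblast list, in 9.

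Nearly all members had an open promoter in CTRL cells. A peak was present at 80 of the 82 genes in each of the 4 CTRL libraries, and the same 80 were the ones with a peak in any library. RPL3L, a form of RPL3 made in heart and skeletal muscle, and RPL10L, a retrogene form of RPL10 used in the male germ line, had no peak in any of the 42. Over all protein-coding genes, 27.8% had none. Per library, the members' share exceeded the share over all genes in 40 of 42 libraries, by a ratio of up to 1.97 in PBS 48 h C, where 54 members (65.9%) and 33.4% of all genes had a peak among 16265 peaks. In the other two libraries it was lower: 7 members (8.54%) against 12.6% in IFNG + EGF 48 h C with 6742 peaks, and 4 members (4.88%) against 7.57% in TGFB + EGF 24 h C with 5760 peaks.

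**Figure D1:**
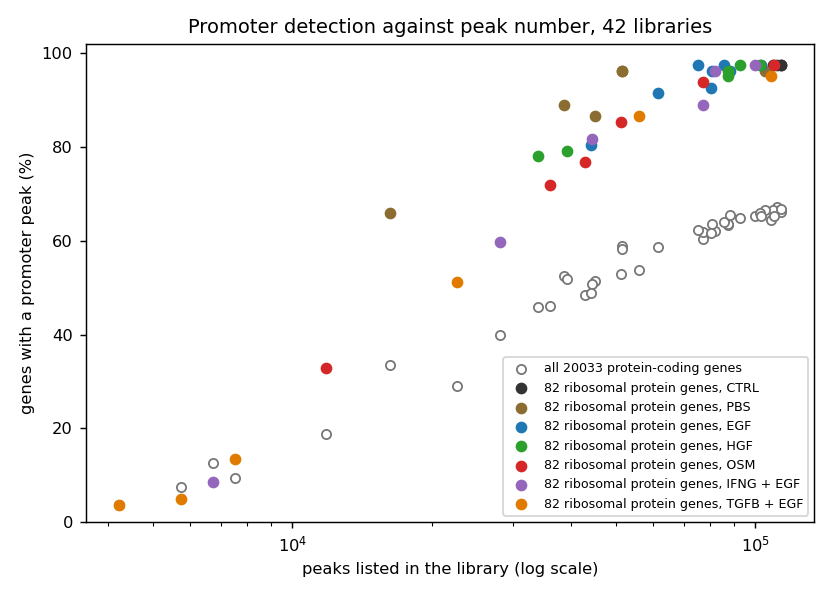
Share of ribosomal protein genes and of all protein-coding genes with a promoter peak (vertical axis, percent) against the number of peaks listed in the library (horizontal axis, log scale), with 1 point of each kind per library. The members lie above all genes in 40 of 42 libraries, and the 9 libraries with at least 100000 peaks hold 78 to 80 members.

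The number of members with a peak followed the number of peaks. The 9 libraries with at least 100000 peaks held 78 to 80 members, the 25 with 30000 to under 100000 held 59 to 80, and the 8 with under 30000 held 3 to 54. By group, the mean was 80.0 ± 0 (SD, n = 4) in CTRL, 74.3 ± 4.16 (n = 3) in PBS 24 h, 70.7 ± 14.4 (n = 3) in PBS 48 h, 75.25 ± 6.60 (n = 4) in EGF 24 h and 78.5 ± 1.73 (n = 4) in EGF 48 h. It was 74.7 ± 8.39 and 74.0 ± 8.72 in HGF at 24 h and 48 h, and 71.0 ± 8.54 and 54.3 ± 25.3 in OSM (n = 3 each). The combined treatments had the widest spread: 63.0 ± 12.5 and 55.3 ± 41.9 in IFNG + EGF, and 31 ± 40.9 and 38.7 ± 34.1 in TGFB + EGF (n = 3 each). When detection was instead adjusted for the share of comparable promoters that each library detected, limma tested 77 members and called none in any of the 11 comparisons between treatments. Of the 14189 promoters tested in this way, 0.19% were called in IFNG + EGF against EGF, 0.00705% in OSM against PBS, 0.0141% in PBS against CTRL and 0% in TGFB + EGF against EGF, EGF against PBS and HGF against PBS. Against CTRL, 0.0352% were called in EGF, 0.0211% in HGF, 0.0141% in OSM, 0.289% in IFNG + EGF and 0.00705% in TGFB + EGF.

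The weakest libraries show which members were detected most readily. Only RPL7, RPS29 and RPS3A had a peak in all 42 libraries (3.66% of members, against 1.39% of all genes). They were also the only 3 members found in TGFB + EGF 48 h B, which listed 4217 peaks. RPL7 is a large-subunit protein, and RPS29 and RPS3A belong to the small subunit. RPL30 was added in TGFB + EGF 24 h C, and RPL23A, which forms a docking site at the peptide exit, RPL36AL and RPSA were among those present in IFNG + EGF 48 h C. RPL23A and RPL36AL had a peak in 40 libraries each, and RPSA, RPS27A, RPL15 and RPL27 in 39. In all, 40 members (48.8%) had a peak in at least 36 libraries, against 32.4% of all genes, 50.0% of 78 mitochondrial ribosomal protein genes, 82.4% of 17 other genes with TOP transcripts and 70.0% of 20 ribosome biogenesis genes.

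The remaining 42 members had a peak in fewer than 36 libraries. Among them RPL39L, a paralogue of RPL39 enriched in testis, and RPS18, a small-subunit head protein, had a peak in 17, RPL7A in 21, RPL38 in 22, RPL17 and RPL19 in 25, RPS9 in 26, RPL41, the smallest ribosomal protein, in 27, RPS28 in 28, and RPS16 and RPS21 in 29. RPL10, RPL12 and RPL14 had a peak in 30, RPL32, RPS15 and RPS27 in 31, RPL31 in 32, and RPL11, RPL13, RPL29, RPL39, RPS3, RPS4X and RPS10 in 33. RPL3, RPL10A and RPL23 had one in 34. RPL4, RPL6, RPL35A, RPL36A, RPL37A, RPLP1, RPLP2, RPS2, RPS15A, RPS24 and RPS27L had one in 35. Low detection went with low height: across the 80 members, Spearman's rho of the number of libraries with the median fold enrichment was 0.756, against 0.791 across 14467 genes, and both measures come from the same libraries and depend on their depth.

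RPL39L and RPS18 were missing from libraries with many peaks, and so were other members, such as RPS9 from one of 108125 peaks. RPL39L had peaks of 10.03, 8.30, 9.39 and 6.97-fold in CTRL A to D, and it had none in any of the 6 PBS libraries, of which the richest listed 104875 peaks. It had a peak in 6 of 8 EGF libraries, at 8.59, 8.83 and 5.19-fold at 24 h and 4.16, 4.79 and 4.26-fold at 48 h. The strongest peak stood at −706 to −697 bp in CTRL and at −713 to −684 bp in 3 of these EGF libraries, but at −225, −265 and −199 bp in EGF 24 h D, 48 h C and 48 h D, so the heights compare different summits. A peak in all 4 CTRL and in none of the 6 PBS libraries was found at 1 member, RPL39L, and at 0.469% of all protein-coding genes, and each CTRL library listed more peaks than any PBS library. RPL39L was singled out after its values were seen. Its detection, adjusted as above, differed between PBS and CTRL by −0.29 (share of libraries, limma adjusted p = 0.997) and between EGF and PBS by 0.46 (limma adjusted p = 0.450).

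RPS18 had peaks of 4.67, 4.87, 6.39 and 6.07-fold in CTRL, low for a promoter there, and it lacked one in a library of 108125 peaks. The 100 bases before the RPS18 start also stand on 5 alternate contigs of chromosome 6, and a peak was listed at 1 or more of these copies in 23 libraries, 6 of which had none at the primary copy. The values of RPS18 are therefore uncertain, since fragments could be placed at either copy.

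**Figure D2:**
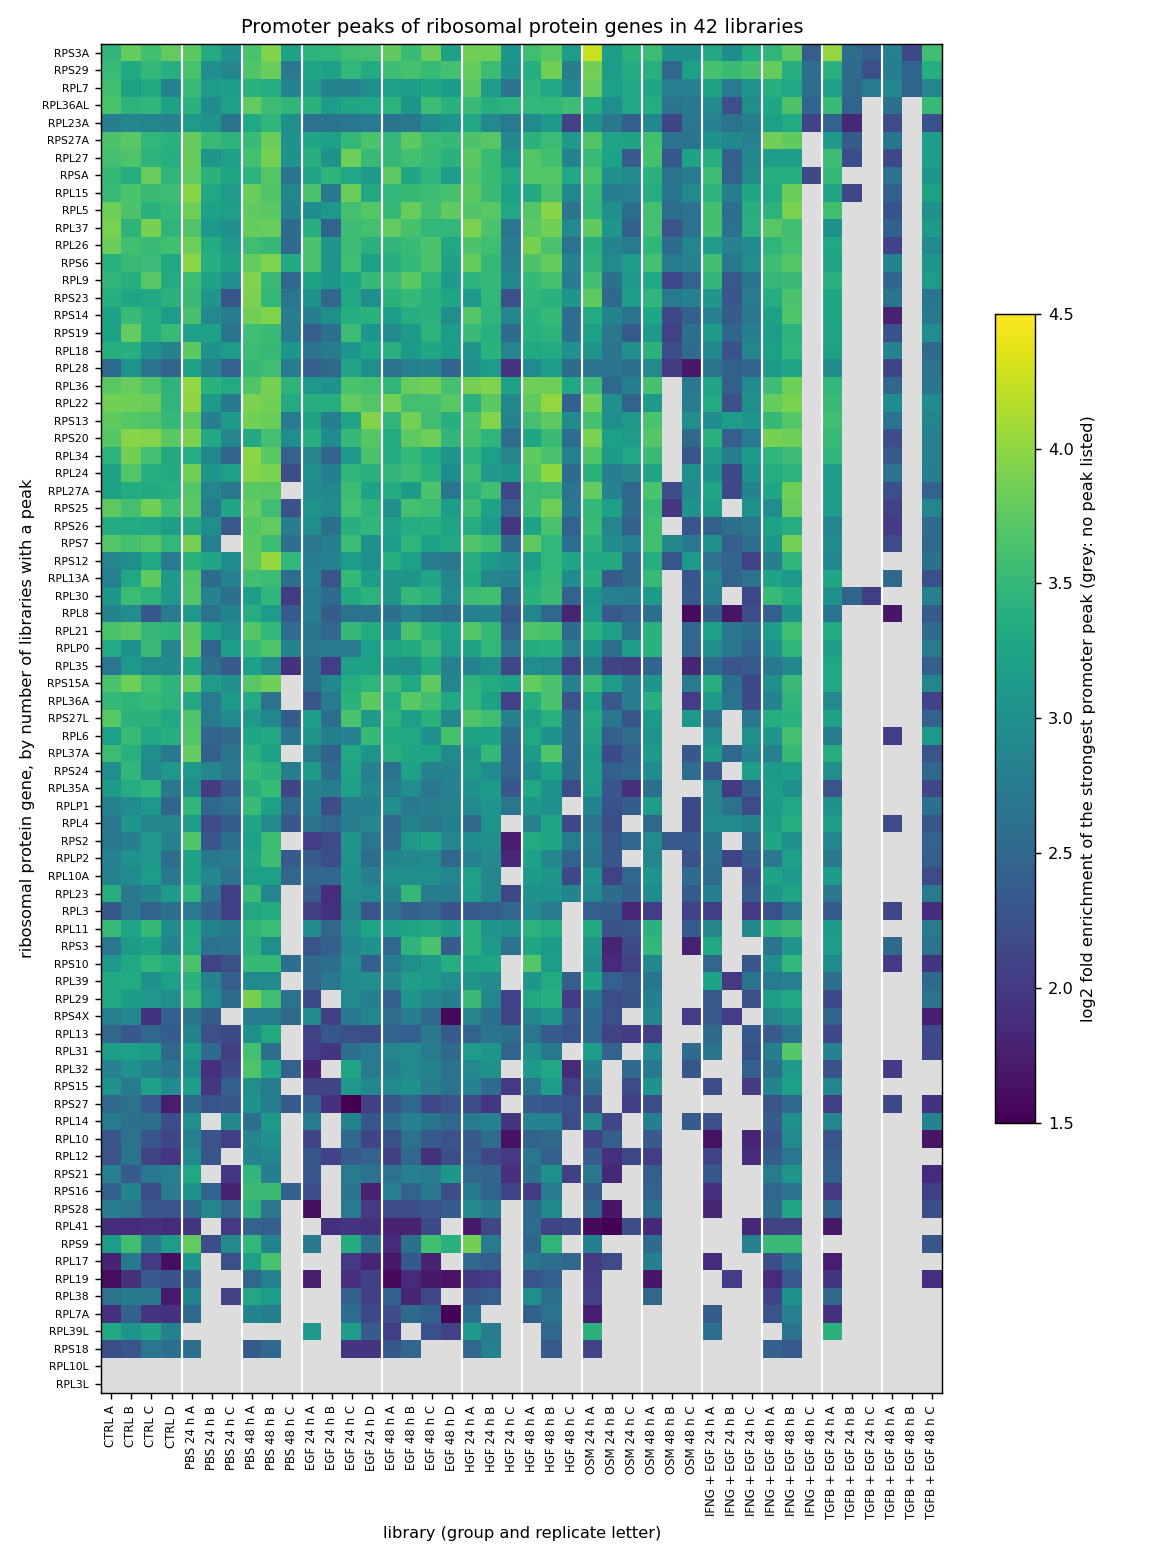
Log2 fold enrichment of the strongest promoter peak (colour) for the ribosomal protein genes described here (vertical axis, by number of libraries with a peak) in each of the 42 libraries (horizontal axis, by group and replicate letter), with grey where no peak was listed. RPS3A, RPS29 and RPL7 are filled in every library, and RPL10L and RPL3L are empty.

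Ribosomal protein promoters were not among the tallest. Over the 80 members with a peak, the median of their median fold enrichments was 8.38, against 8.0 over 14467 genes. Among promoters with a peak in at least 30 libraries it was 8.86 (69 members) against 9.15 (10005 genes). Within libraries, the median member stood at a percentile of 38.6 to 66.2 among all promoters with a peak, and under 50 in 24 of 42 libraries.

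Members differed among themselves in height. High medians were those of RPL36 (11.9), RPL22 (11.7), RPS13 (11.4) and RPL5 (11.3), which with RPL11 and 5S RNA forms a particle that binds MDM2. The lowest were those of RPL41 (3.80), RPL19 (3.92), RPL17 (4.72), RPS27 (4.82) and RPL12 (4.93), a protein at the base of the stalk. Small-subunit genes had a median of 8.98 and large-subunit genes one of 7.61. The stalk genes RPLP0, RPLP1 and RPLP2 had medians of 8.94, 7.18 and 6.53. The paralogues outside the rule, RPL22L1 (39 libraries, 9.17), RPL26L1 (36, 8.14) and RPL7L1 (36, 9.70), were within the range of the members.

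RPL36 can be followed over the libraries as a tall member. Its fold enrichment was 13.3, 14, 12.7 and 10.9 in CTRL A to D, 16.1, 10.7 and 10.1 in PBS 24 h, 12.9, 14.8 and 10.9 in PBS 48 h, and 5.62 and 6.30 in the TGFB + EGF 48 h libraries with a peak. RPL41, the lowest, lay between 2.87 and 5.94 in the 27 libraries that listed it. These ranges did not overlap within the 4 CTRL libraries, whereas the lowest RPL36 value of all libraries, 5.34 in IFNG + EGF 24 h B, was under the highest of RPL41. The SD between libraries of the same group, on the log2 scale after normalization, had a median of 0.224 over 69 members and 0.220 over all 10005 promoters.

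Peak summits at these promoters lay upstream of the start. The median summit position was 89.5 bp upstream (−89.5 bp) over 80 members, and 74 of them (92.5%) had a median summit upstream of the nearest start, against −43.0 bp and 70.1% over all genes. Mitochondrial ribosomal protein genes had −35.5 bp and 70.5%, and other TOP genes −99.5 bp and 94.1%. For 68 members the median summit was within 200 bp of the start. The farthest upstream were RPL39L (−701 bp), RPL36 (−538 bp), RPS19 (−477.5 bp), a gene mutated in Diamond-Blackfan anaemia, and RPL28 (−396 bp), while RPL7 had its summit downstream (214 bp). The 4 CTRL libraries placed the RPL36 summit between −562 and −530 bp, and over its 37 libraries it ran from −592 to −325 bp.

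**Figure D3:**
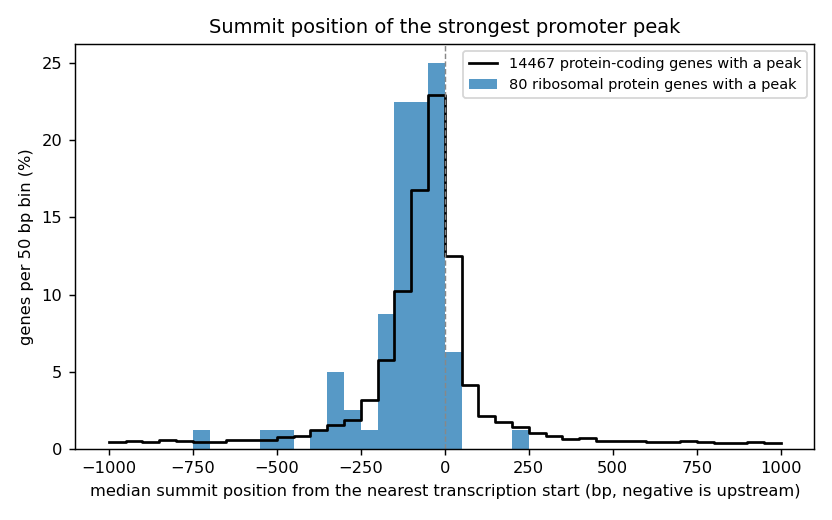
Median summit position of the strongest promoter peak relative to the nearest transcription start (horizontal axis, bp, negative is upstream) for members and for all protein-coding genes, as the percent of genes in each 50 bp bin (vertical axis). Of 80 members, 74 lie upstream, with a median of −89.5 bp against −43.0 bp for all genes.

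Many of these peaks are shared with a neighbour. Another protein-coding gene started within 1000 bp of 21 members (25.6%, against 18.3% of all genes), and for 14 of the 21 the member and a neighbour had the same strongest peak in every library where both had a peak. These included RPL36 with HSD11B1L and MICOS13 (37 of 37 libraries), RPL36AL with MGAT2 (40 of 40), RPL7 with RDH10 (42 of 42) and RPS18 with VPS52 (17 of 17). RPS29 and LRR1 shared none in 35 libraries. At a shared peak the values belong to both genes and cannot be told apart.

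Differences between treatments were tested with limma on log2 fold enrichment after cyclic loess between libraries, with a promoter treated as missing where no peak was listed, and called at a Benjamini-Hochberg adjusted p below 0.01 over all promoters tested. The planned filter, a peak in at least 30 libraries and in 2 of every group, kept 2250 promoters and 10 of the 82 members, among them RPS3A, RPS29, RPL7, RPL36AL, RPL23A, RPS27A, RPL27 and RPL15. Because this left out most members, the same fit was also made with a peak required in 2 libraries of each compared group only, which was chosen after seeing the data. That kept 69 members in EGF against PBS, HGF against PBS and PBS against CTRL, 65 in IFNG + EGF against EGF, 59 in OSM against PBS and 10 in TGFB + EGF against EGF.

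Over all 13 groups, the moderated F test called 19 of 2250 promoters (0.844%) and 0 of the 10 members. Of the 10, 5 had an unadjusted p under 0.05, against 18.2% of all 2250. No promoter was called for a change of the ligand differences between 24 h and 48 h, and 1 member had an unadjusted p under 0.05, against 7.42% of all promoters.

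EGF-treated cells had a lower peak than PBS-treated cells at RPL29, a large-subunit protein also known as a heparin-binding protein. With the planned filter, which RPL29 did not pass, 1 of 10 members was called, where 0.933% of all promoters were called and 0.133% were lower. With the filter on the compared groups 2 of 69 members were called, both lower and 1 of them RPL29, where 1.03% of 9876 promoters were called and 0.192% were lower.

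RPL29 fell by 0.60 (log2, SE 0.127, limma adjusted p = 0.00405) in EGF against PBS. Its fold enrichment was 11.6, 7.70 and 5.91 in PBS 24 h, 14.8, 12 and 6.16 in PBS 48 h, 4.49, 7.66 and 6.95 in EGF 24 h A, C and D, with no peak in B, and 5.26, 8.30, 7.32 and 6.92 in EGF 48 h. On the normalised log2 scale PBS lay between 2.83 and 3.55 and EGF between 2.28 and 2.85, which overlap at 1 end. RPS12 had a difference of −0.61 (SE 0.144) that did not pass, with a limma adjusted p of 0.0101.

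The call of RPL29 in EGF against PBS rested on single libraries. It no longer passed without PBS 24 h B, PBS 48 h A or B, or EGF 24 h A, and was −0.53 (limma adjusted p = 0.0376) without PBS 48 h A. It did not pass at 24 h alone or at 48 h alone. Without both PBS 48 h A and B, whose median member fold enrichment was the highest of all libraries (11.4 in both), no member was called. Over all promoters 1 was called without PBS 48 h A, 4 without B and 2 without both. With all libraries 83 were called higher and 19 lower.

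The other members of EGF against PBS went mostly the same way without passing. Of the 69 that passed the filter, 81.2% had a negative difference and the median was −0.15 (log2), against 50.8% and −0.0038 over all promoters tested. An unadjusted p under 0.05 was found for 30.4% of the 69 and 17.4% of all. The largest positive difference was that of RPL36A, at 0.31 (SE 0.155, limma adjusted p = 0.297), and at 24 h alone it was −0.02. Other TOP genes had a median of −0.14, mitochondrial ribosomal protein genes 0.02 and ribosome biogenesis genes 0.07, with 0 members of these lists called. PBS libraries listed fewer peaks (median 48276) than EGF libraries (median 80464.5), and the part of peak number in the difference was not tested.

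Against CTRL, PBS-treated cells had higher peaks at RPS12, a small-subunit protein, and RPL28, a large-subunit protein. With the planned filter, which neither of them passed, 1 of 10 members was called, where 0.667% of promoters were called and 0.0444% were higher. With the filter on the compared groups 3 of 69 members were called, all of them higher, where 1.36% of promoters were called and 0.284% were higher.

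RPS12 rose by 0.86 (log2, SE 0.172, limma adjusted p = 0.00177). Its fold enrichment was 7.28, 7.90, 9.74 and 6.67 in CTRL, 10.8, 9.69 and 7.78 in PBS 24 h, and 13.5, 16.3 and 11.2 in PBS 48 h. The 3 libraries at 48 h exceeded all 4 of CTRL on this scale, whereas PBS 24 h B and C lay within the CTRL range. On the normalised scale the groups did not overlap, with 2.44 to 2.87 in CTRL and 2.91 to 3.99 in PBS.

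RPL28 rose by 0.64 (log2, SE 0.144, limma adjusted p = 0.00482). Its fold enrichment was 5.74, 8.29, 6.26 and 5.54 in CTRL, 9.38, 7.07 and 5.45 in PBS 24 h, and 11.4, 12 and 6.79 in PBS 48 h. The normalised ranges, 2.17 to 2.76 in CTRL and 2.69 to 3.30 in PBS, overlapped through CTRL B. The RPL28 summit also stood at another place: −158, −138 and −124 bp in PBS 48 h, against −388 to −338 bp in PBS 24 h, −543 to −207 bp in CTRL and −502 to −335 bp in EGF. So for RPL28 the strongest peak in PBS 48 h was nearer to the start, and the heights compare different summits.

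Leaving out PBS 48 h B ended the calls of all 3 members: RPL28 then had 0.61 (limma adjusted p = 0.0442) and RPS12 0.85 (limma adjusted p = 0.0149). Over all promoters only 2 were then called, against 28 higher and 106 lower with all libraries. Leaving out CTRL D also ended the calls of all 3 members, with 62 promoters called. Neither RPS12 nor RPL28 passed with the lane number of the file names as a term (0.75 and 0.64, limma adjusted p = 0.0135 and 0.0139) or at 24 h alone (0.62 and 0.48, limma adjusted p = 0.190 and 0.217). RPS12 and RPL28 were also lost without CTRL A or PBS 24 h B, and RPL28 without CTRL C or PBS 48 h A. At an adjusted p below 0.05, RPS6, the substrate of the S6 kinases (0.49), RPL23A (0.53), RPL18 (0.52) and RPLP1 of the stalk (0.43) were also higher in PBS, which makes 7 members where 5.77% of all promoters tested passed that threshold. RPL29 had 0.35 (limma adjusted p = 0.137).

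Over the 69 members that passed the filter, the median difference of PBS against CTRL was 0.17 (log2) and 23.2% were negative. An unadjusted p under 0.05 was found for 31.9% of these members and 22.7% of all promoters. Other TOP genes had a median of 0.19, mitochondrial ribosomal protein genes −0.08 and ribosome biogenesis genes 0.01, with 0 called. CTRL was taken at 0 h only, so time in culture and PBS cannot be told apart, and CTRL libraries listed more peaks than any PBS library. The comparison shares its PBS libraries with EGF against PBS.

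**Figure D4:**
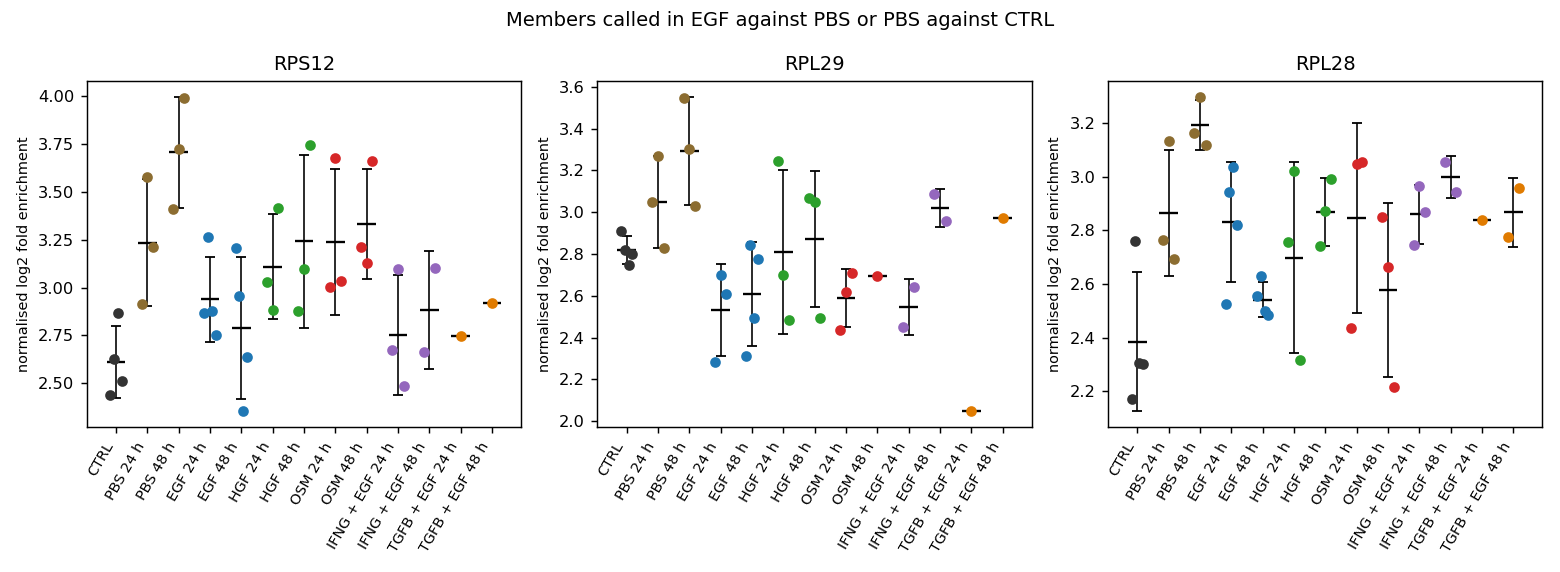
Normalised log2 fold enrichment (vertical axis) of RPS12, RPL29 and RPL28 in each library with a peak, by group (horizontal axis), with the mean and SD of the group as bar and whiskers. PBS libraries of RPS12 lie at 2.91 to 3.99 and CTRL libraries at 2.44 to 2.87.

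The same comparison can be read per library. The median, over the 69 members with a peak in at least 30 libraries, of their deviation from each promoter's own mean was positive in 6 of 6 PBS libraries (0.02 to 0.20, log2), with a mean of 0.06 at 24 h and 0.18 at 48 h. In CTRL it lay between −0.15 and 0.02 and in EGF between −0.17 and 0.08, and the pooled SD within groups was 0.0744. HGF, OSM, IFNG + EGF and TGFB + EGF had means of 0.02 to 0.03. PBS 48 h had the highest mean of the groups, but PBS 48 h C (0.13) was level with OSM 48 h B (0.13) and under PBS 24 h B and TGFB + EGF 48 h B (0.14 each). The median of OSM 48 h B covers 27 members and that of TGFB + EGF 48 h B only RPL7, RPS29 and RPS3A, so these medians are not like measures.

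**Figure D5:**
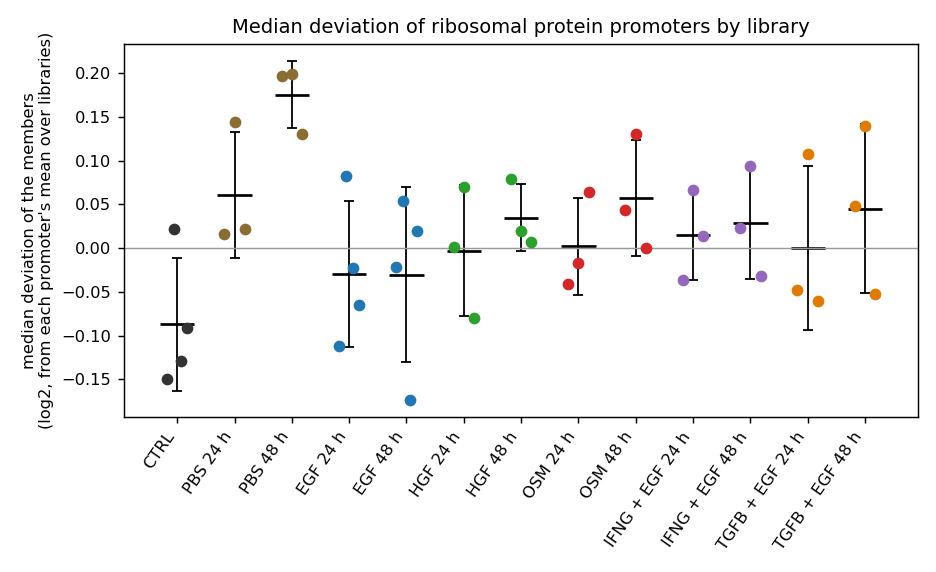
Median deviation of the members' normalised log2 fold enrichment from each promoter's mean over libraries (vertical axis) for each library, by group (horizontal axis). Each median covers only the members with a peak in that library, which are 3 in TGFB + EGF 48 h B. All 6 PBS libraries lie above 0, from 0.02 to 0.20, and the CTRL libraries lie from −0.15 to 0.02.

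No member was called by limma in the other comparisons. With the planned filter, 0.267% of promoters were called in OSM against PBS, 0.0444% in HGF against PBS and in TGFB + EGF against EGF, 0.178% in IFNG + EGF against EGF and against CTRL, and 0% in EGF, HGF, OSM and TGFB + EGF against CTRL. The values that follow are from the fit with the filter on the compared groups. An unadjusted p under 0.05 was found for 6 of 69 members in HGF against PBS and 8 of 59 in OSM against PBS, which is 8.70% and 13.6%, against 13% and 15.2% of all promoters tested. In HGF against PBS, where 0.142% of promoters were called, the differences ran from −0.33 at RPL29 (limma adjusted p = 0.249) to 0.21 at RPS27L, a paralogue of RPS27 induced by p53 (limma adjusted p = 0.488), with a median of −0.08. In OSM against PBS, where 0.523% were called, RPL36 had −0.43 (limma adjusted p = 0.0445) and the median was −0.07. The highest OSM library of RPL36 only reached the lowest PBS library (3.40 in both, normalised log2), and with the canonical start alone its difference was 0.03.

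IFNG + EGF and TGFB + EGF were compared with EGF at the same times. With IFNG, limma called 0.156% of promoters and no member, and 9 of 65 members (13.8%) had an unadjusted p under 0.05, against 8.54% of all. RPL4, which lines the peptide exit tunnel, had 0.50 (SE 0.120, limma adjusted p = 0.0339). Its fold enrichment was 7.62, 7.61 and 7.18 in IFNG + EGF 24 h and 8.98 and 10.3 in IFNG + EGF 48 h A and B, with no peak in C, and in EGF it was 6.29, 5.62, 6.78 and 7.41 at 24 h and 5.69, 7.14, 6.56 and 6.96 at 48 h. These fold enrichments overlapped only at IFNG + EGF 24 h C. The strongest peak of RPL4 was also that of its neighbour ZWILCH in 35 of 35 libraries, so the difference belongs to both genes. Its summit lay at −361 to −20 bp in IFNG + EGF and at −666 to −38 bp in EGF, so the heights compare different summits. RPL27 had the lowest difference, −0.28 (limma adjusted p = 0.393), and the median over the 65 members was 0.07.

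With TGFB, limma called 0.133% of promoters and none of the 10 members tested, of which 2 (20%) had an unadjusted p under 0.05, against 10.7% of all promoters tested. RPL7 had 0.44 (limma adjusted p = 0.186) and RPL23A −0.13 (limma adjusted p = 0.772). The strongest peak of RPL7 was also that of RDH10 in 42 of 42 libraries, so its difference belongs to both genes. Among the libraries compared, only TGFB + EGF 24 h B had the RPL7 summit upstream of the start. The median over the 10 was 0.17, against 0.04 over all promoters tested, of which 59.2% were positive, but without the 8 libraries of under 30000 peaks, which let 70 members be tested, it was −0.02. Of the 6 TGFB + EGF libraries, 4 listed under 30000 peaks, so most members could not be compared there.

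The ligand groups were also set against CTRL, with 0 members called by limma, where 0% of all promoters were called in EGF, HGF and TGFB + EGF, 0.0113% in OSM and 0.0832% in IFNG + EGF. An unadjusted p under 0.05 was found for 1 of 69 members in EGF, 8 of 69 in HGF, 13 of 59 in OSM, 9 of 65 in IFNG + EGF and 5 of 10 in TGFB + EGF. Over all promoters tested the shares were 6.63%, 7.67%, 18.7%, 13.8% and 17.7% in the same order, against 1.45%, 11.6%, 22%, 13.8% and 50% of the members. The medians of the members tested were 0.07 in EGF, 0.13 in HGF, 0.16 in OSM, 0.11 in IFNG + EGF and 0.26 in TGFB + EGF (10 members), where the median over all promoters tested was 0.09 in TGFB + EGF and between −0.0014 and 0.0062 in the others. In IFNG + EGF, RPS29 had 0.58 (limma adjusted p = 0.0221) and RPL4, at the peak it shares with ZWILCH, 0.56 (limma adjusted p = 0.0477). The CTRL libraries are shared by these comparisons, which are therefore given side by side only.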

How the data were processed

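Per the labels and the methods, the authors trimmed paired reads with Trimmomatic 0.36.5, aligned them to hg38 with Bowtie2 2.3.4.1, removed mitochondrial, secondary and duplicate alignments (Picard), and called peaks in each library with MACS2 2.1.1.20160309.5 at a q of 0.01. The deposited peak lists give the fold enrichment at the summit (a ratio over the local background, not normalized between libraries), a whole-number score, the −log10 of p and q, and positions. No read counts were used here, so the depth was unknown and no counting interval is given.

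Starts of 20033 protein-coding genes came from GENCODE release 44, basic transcripts, and promoter sequences from RefSeq on GRCh38. Peaks with a summit within 1000 bp were assigned, and log2 fold enrichment was normalized by cyclic loess and fitted with limma 3.58.1 in R 4.3.3 (13 groups, 29 residual degrees of freedom). Contrasts averaged 24 h and 48 h, and were called at an adjusted p of 0.01. In simulated data for EGF against PBS over 9876 promoters, 100% of promoters changed by 1 (log2) were recovered, 50.8% of those changed by 0.5 and 0% of those changed by 0.25. Of the unchanged promoters 1 was called. The simulated noise was independent between promoters, so shifts shared by the promoters of a library were not covered.

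The members and lists were chosen with earlier results of these data known. Named were the members called, those with the 5 highest and 5 lowest median fold enrichments, those with a peak in under 36 libraries, the largest rise and fall per ligand comparison, and examples of shared promoters. RPL39L and the summit of RPL28 were added after their values were seen. Replicate letters were not used as pairs in the main fit, and whether they mark a shared batch is not known. The alternatives tried were other normalizations, filters, weights, starts, peak thresholds and covariates, and each library left out. Markers and lists came from fixed gene symbols. BMP2 libraries were not analysed here, and the results of some genes are not reported here.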

Additional observations from a re-analysis of the deposited data

Results flagged for a closer look

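RPL23A, which helps to form the docking site at the peptide exit, was higher in EGF 48 h D (3.05, normalised log2 fold enrichment) than in the other EGF 48 h libraries, which lay between 2.51 and 2.59. RPL36, a large-subunit protein, stood apart in CTRL B (3.44, against 3.24 to 3.27 in the other CTRL libraries) and in EGF 24 h A (3.05, against 3.34 to 3.38). Each of these values was separated from the rest of its group by more than Dixon's 95% limit for 4 samples. Of 47 groups of 4 libraries tested, 3 passed that limit, and chance gives about 1 in 20.

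The differences of a pair of members had opposite signs at 24 h and 48 h, with ligand and PBS libraries not overlapping at either time. RPS14, a small-subunit protein lost in the 5q− syndrome, had 0.17 at 24 h and −0.37 at 48 h in HGF against PBS, a change of −0.54. RPL26, known to bind the p53 transcript, had −0.28 and 0.19 in OSM against PBS, a change of 0.47. The difference between times was not tested for these genes. Such a pattern was found in 2 of 272 comparisons of members (0.735%) and in 252 of 40428 comparisons of all promoters (0.623%).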

How the results depend on the processing

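With the planned filter, the count of 1 member called in EGF against PBS became 0 with a peak required in all 42 libraries, without the 8 libraries of under 30000 peaks, at 24 h only, at 48 h only and for adjusted detection, and 2 with no filter. Over all promoters these settings called 0, 86, 2, 9, 0 and 55 in the same order, against 18 higher and 3 lower in the main fit. With a peak required in all 42 libraries only 3 members could be tested. In PBS against CTRL the count of 1 became 0 with a peak in all 42, at 24 h only and for adjusted detection, and 2 without the libraries of under 30000 peaks. With no filter 1 member was called in OSM against PBS, 1 was called in IFNG + EGF against CTRL at an adjusted p of 0.05 and at 24 h only, and the test over all 13 groups called 1 at 0.05, 2 with array weights and 1 with peaks of a −log10 q of at least 5. Over all promoters these settings called 41, 11, 9, 39, 136 and 10 in the same order. Leaving out each library gave 0 to 1 in EGF against PBS, 0 to 1 in PBS against CTRL and 0 to 1 over all groups. Among those that ended the calls were libraries of IFNG + EGF 48 h, TGFB + EGF 24 h and TGFB + EGF 48 h, without which fewer promoters pass the filter on every group. Other libraries ended a call with all 10 members still tested. In EGF against PBS this was PBS 24 h B. In PBS against CTRL these were CTRL A, CTRL D, PBS 24 h B, PBS 48 h A and PBS 48 h B. Over all promoters 8, 12, 6, 15, 2 and 2 were then called, in the same order.

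With the filter on the compared groups, the count of 2 in EGF against PBS was 5 with array weights, 0 with a peak in all 42 libraries, 1 with the replicate block, 0 at 24 h only, 1 at 48 h only, 0 without PBS 48 h A and B, and 0 to 3 with each library left out. Over all promoters 462 were called with array weights, 0 with a peak in all 42 and 54 with the replicate block. At 24 h only 1 was called, at 48 h only 76, and without PBS 48 h A and B 2. A peak in all 42 left only 3 members to test. The count of 3 in PBS against CTRL was 7 at an adjusted p of 0.05, 11 with array weights, 0 with a peak in all 42, 1 with lane as a term, 0 at 24 h only and 0 to 4 with each library left out. Apart from the left-out libraries, these settings called 570, 1076, 2, 70 and 2 over all promoters in the same order. IFNG + EGF against EGF and OSM against PBS had 1 each at 0.05, OSM against CTRL had 2 with array weights, and IFNG + EGF against CTRL had 2 at 0.05, 3 with array weights, 1 at 24 h only and 0 to 1 with each library left out. Apart from the left-out libraries, the counts over all promoters were 41, 202, 190, 44, 73 and 17 in the same order. The cause of these changes was not tested.

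The median over the members kept its sign under all 53 alternatives in EGF against PBS (−0.21 to −0.09) and in PBS against CTRL (0.13 to 0.25, the highest, 0.248, at 48 h only). In TGFB + EGF against EGF it was −0.0026 with median centring, 0.018 with quantile normalization, −0.019 without the libraries of under 30000 peaks, −0.0045 at 24 h only and 0.063 at 48 h only. In TGFB + EGF against CTRL the same settings gave 0.136, 0.108, 0.055, 0.158 and 0.132. In OSM against CTRL it was 0.069 with peaks of a −log10 q of at least 5 and 0.099 to 0.270 with each library left out, the highest without OSM 48 h C. Single members changed sign at RPL23A in TGFB + EGF against EGF (0.050 at 48 h only), RPL36A in EGF against PBS (−0.016 at 24 h only) and RPL36 in OSM against PBS (0.030 with canonical starts).

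The mean number of members with a peak in CTRL was 78.75 within 500 bp, 78.5 with peaks of a −log10 q of at least 5 and 79.25 with canonical starts, and with that stricter q it was 68 in PBS 24 h and 75 in EGF 48 h. Same-letter libraries deviated together by more than 0.1 in 54 of 237 pairs (median r 0.023) and different-letter libraries in 81 of 576 (median r −0.0081). These counts do not settle whether libraries of the same letter share a batch. Each letter goes with 1 library number in the file names, and the letters were not used as pairs in the main fit. With the replicate block, the planned filter called 1 member in EGF against PBS and 1 in PBS against CTRL. Few peaks were listed in 4 of the 6 TGFB + EGF libraries, which limits what can be said of that treatment.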

Other observations

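The strongest peak of some members moved along the promoter from library to library. The distance between the most upstream and the most downstream summit had a median of 222.5 bp over the 80 members with a peak and ran from 43 to 865 bp. The widest was that of RPL4, which lines the peptide exit tunnel, whose summit was at −666 bp in EGF 24 h A and at 199 bp in PBS 24 h B. RPL7 had its summit at 151 to 395 bp in 39 libraries and at −347, −351 and −353 bp in PBS 48 h B, PBS 48 h C and TGFB + EGF 24 h B. A median peak was 601 bp wide at members and 590 bp at all genes.

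The genes of mitochondrial ribosomal proteins, which translate the transcripts of the organelle, differed from the members in their promoter letters. The ETS letters were present in 42% of 69 windows and the YY1 letters in 33.3%, against 33.8% and 12.3% of the 65 member windows, while a TOP start was present in 7.25% against 64.6%. No difference between these lists was tested.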
